A study of Mus musculus with 6 samples.

Results

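The 10 genes Prg2, Prg3, Epx, Ccr3, Il5ra, Ms4a2, Fcer1a, Cpa3, Mcpt8 and Hdc, which mark eosinophils, basophils and mast cells, were followed in sorted mouse LSK cells, the lineage-negative, Sca1-positive, cKit-positive marrow fraction in which blood stem cells and multipotent progenitors lie. All 10 were measured among 22180 genes. The genes were chosen by name for these lineages, at a time when results of the same arrays were known. A gene was to be read from the probe set selected on the highest mean over the 6 arrays, but each of the 10 had exactly 1 probe set, so no measured value decided between probe sets. The difference between genotypes is therefore given as a description of these genes, beside its share among all genes. The label names 3 cell types, and the deposited values cannot tell which cells of the sort carried each transcript.

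The arrays fall into 3 labelled Tifab knockout (TIFAB-/-, KO) and 3 labelled Tifab wild type (TIFAB+/+, WT), and the design text gives 3 mice in each group. Tifab encodes a relative of TIFA, an adaptor in TRAF6 signalling, and the study compared the LSK transcriptome of both genotypes after engraftment and before marrow failure was overt. Per the labels, the cells came from mice that had received KO or WT marrow; 3 months is given for both groups, without settling whether it counts from birth or from the transplant. The treatment text, the same in both groups, adds that cells were injected into Boy/J recipients of matching background after lethal irradiation with 7.0 Gy and, 3 hours later, 4.75 Gy. It does not settle whether these recipients are the mice whose RNA was measured, and no donor marker is named in the sort, so residual host cells are not addressed by the labels. No cell type or promoter limiting the deletion is named.

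The KO label was not borne out or contradicted by the Tifab probe set, which measured 5.21, 5.12 and 5.26 on the KO-labelled arrays, against 4.99, 5.37 and 5.53 on the WT-labelled arrays. The position of its probes relative to the deletion is not stated, so groups are named by their labels throughout. Kit, the receptor used in the gate, was at 9.59, 9.57 and 9.41 on the KO-labelled arrays and 9.69, 9.58 and 9.50 on the WT-labelled arrays. Signal is on the log2 scale as deposited, so a difference of 1 is a doubling. Signals of different probe sets also depend on their probes, so a gene's place among all genes is given only to mark dim probe sets and is no measure of its abundance. In bulk cells, fewer cells of a type and less RNA per cell cannot be told apart, and the number of arrays limits the precision of every value.

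Eosinophils grow from marrow progenitors that respond to interleukin-5 and fill their granules with toxic cationic proteins. Basophils and mast cells carry the high-affinity receptor for IgE, store histamine and load their granules with proteases. GATA factors, together with C/EBP factors and, in mast cells, MITF, are known to drive these programmes from early progenitors onward. Transcripts of these lineages are also known at low level in multipotent progenitors.

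The eosinophil granule genes Prg2 and Epx separated the arrays most clearly, and the split did not follow the genotype label. Prg2 encodes major basic protein, the main constituent of the eosinophil granule core. Its log2 signal was 6.44, 9.65 and 6.38 on KO-labelled arrays 1, 2 and 3, against 9.62, 8.87 and 9.23 on the WT-labelled arrays. KO-labelled arrays 1 and 3 lay well below every other array, while KO-labelled array 2 was the highest of all 6, so the groups overlapped. The KO-labelled mean was 7.49 ± 1.87 and the WT-labelled mean 9.24 ± 0.37 (SD, n = 3 each). The difference was -1.75 ± 0.73 (SE, 95% interval -3.39 to -0.12), or 0.297 of the WT-labelled level, and it did not pass limma's test over all genes (adjusted p = 0.468). The range of Prg2 over the 6 arrays, 3.26, was exceeded by only 0.122% of all genes.

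Epx encodes eosinophil peroxidase, the granule enzyme that makes oxidants from bromide and thiocyanate. It measured 4.43, 5.80 and 4.42 on the KO-labelled arrays, against 6.13, 5.48 and 5.71 on the WT-labelled arrays. The same KO-labelled arrays, 1 and 3, were low, and KO-labelled array 2 was again among the WT-labelled values. The difference was -0.89 ± 0.35 (SE, 95% interval -1.69 to -0.09; limma adjusted p = 0.454). Because both genes fall into 2 separate sets of arrays, no pooled correlation is printed for this pair, a choice made after the values were seen. The pair still enters the counts and means over all pairs below, and the distance given later reflects the same split.

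Prg3, which encodes the homologue of major basic protein and lies next to Prg2 on chromosome 2 with 1 predicted gene between them, spread more widely. It measured 3.28, 5.94 and 4.49 on the KO-labelled arrays, against 5.07, 5.74 and 4.26 on the WT-labelled arrays. KO-labelled array 2 was the highest and KO-labelled array 1 the lowest, with KO-labelled array 3 inside the WT-labelled range. The difference was -0.45 ± 0.59 (SE, limma adjusted p = 0.831), and it was reversed to 0.20 without KO-labelled array 1.

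**Figure D1:**
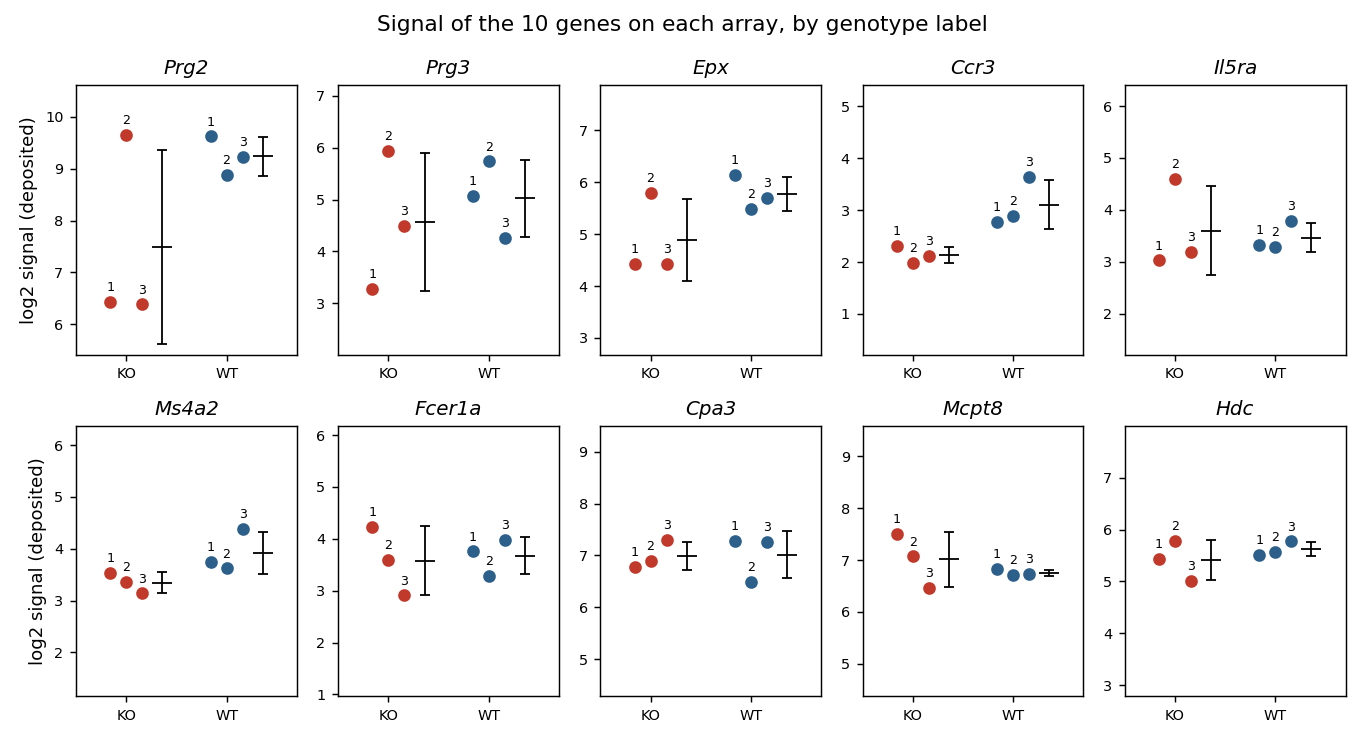
Deposited log2 signal (vertical axis) of each of the 10 genes on every array, with KO-labelled arrays in red and WT-labelled arrays in blue, replicate numbers above the points, and the mean with its SD (n = 3) in black. Every panel spans the same log2 range; Prg2 and Epx were low on KO-labelled arrays 1 and 3 only, and Ccr3 and Ms4a2 did not overlap between the labels.

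The RefSeq promoter table used here gave a match for 9 of the 10 genes. The 250 bases before the start of Prg3 and Epx are shown because these granule genes had the widest spread with an entry; capitals mark a GATA motif (AGATAA or AGATAG or TGATAA or TGATAG, on either strand). The build is GRCm38.p6. Prg3 lies at chr2:84987965-84988214, plus strand, and Epx at chr11:87875537-87875786, minus strand.
Prg3: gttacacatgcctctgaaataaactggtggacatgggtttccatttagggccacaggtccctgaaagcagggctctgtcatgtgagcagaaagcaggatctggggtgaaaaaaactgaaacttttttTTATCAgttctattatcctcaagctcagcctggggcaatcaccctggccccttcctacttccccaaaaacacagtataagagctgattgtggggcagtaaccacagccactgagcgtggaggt
Epx: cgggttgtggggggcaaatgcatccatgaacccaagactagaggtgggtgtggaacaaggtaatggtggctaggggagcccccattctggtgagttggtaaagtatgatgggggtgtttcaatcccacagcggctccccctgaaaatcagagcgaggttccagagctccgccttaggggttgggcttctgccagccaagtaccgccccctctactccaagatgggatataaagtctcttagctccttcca
Prg3 held 1 GATA motif, at -123 from the start (the base before the start is -1), and none of the 4 spellings was in this window of Epx. A GATA motif was in 7 of the 9 promoters, and 26.5% of 32851 promoters of the same length held at least 1. A C/EBP motif, TTGCNNAA on either strand and in no overlap with the GATA matches, was in 1 of the 9, that of Fcer1a, and in 9.56% of all promoters.

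The receptors that guide and feed eosinophils did not share one pattern. Il5ra encodes the alpha chain of the interleukin-5 receptor. It measured 3.03, 4.59 and 3.18 on the KO-labelled arrays, against 3.32, 3.28 and 3.79 on the WT-labelled arrays. KO-labelled array 2 was again the highest, and the other KO-labelled arrays were the lowest. The difference was 0.14 ± 0.37 (SE, limma adjusted p = 0.926), and it was -0.36 without KO-labelled array 2.

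Ccr3 encodes the receptor for eotaxin chemokines, by which eosinophils and basophils reach tissue. It measured 2.30, 1.99 and 2.11 on the KO-labelled arrays, against 2.77, 2.89 and 3.64 on the WT-labelled arrays. The groups did not overlap, with the KO-labelled arrays lower in 3 of 3, and WT-labelled array 3 was the highest. Their means were 2.13 ± 0.16 and 3.10 ± 0.47 (SD, n = 3 each). The difference was -0.97 ± 0.22 (SE, 95% interval -1.47 to -0.46; limma adjusted p = 0.314). A two-sided exact permutation of the arrays gave p = 0.1, the smallest that 3 against 3 allows. Ccr3 was dim, with a mean signal above that of 13.2% of genes.

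Ms4a2 and Fcer1a encode the beta and alpha chains of the high-affinity IgE receptor, which arms basophils and mast cells. Ms4a2 measured 3.53, 3.37 and 3.14 on the KO-labelled arrays, against 3.75, 3.62 and 4.39 on the WT-labelled arrays. These groups did not overlap either, though KO-labelled array 1 and WT-labelled array 2 lay close to each other. The difference was -0.57 ± 0.22 (SE, 95% interval -1.07 to -0.08; limma adjusted p = 0.434), and it was -0.34 without WT-labelled array 3. Fcer1a measured 4.23, 3.59 and 2.91 on the KO-labelled arrays, against 3.76, 3.29 and 3.98 on the WT-labelled arrays. KO-labelled arrays 1 and 3 held its highest and lowest value, and the difference was -0.10 ± 0.31 (SE, limma adjusted p = 0.939).

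Ccr3 and Ms4a2 are the 2 genes whose promoter held at least 2 GATA motifs, which was true of 6.40% of all promoters, and their sequences are shown for that reason, with the same motif in capitals and in the same build. Ccr3 lies at chr9:124021721-124021970, plus strand, and Ms4a2 at chr19:11623720-11623969, minus strand.
Ccr3: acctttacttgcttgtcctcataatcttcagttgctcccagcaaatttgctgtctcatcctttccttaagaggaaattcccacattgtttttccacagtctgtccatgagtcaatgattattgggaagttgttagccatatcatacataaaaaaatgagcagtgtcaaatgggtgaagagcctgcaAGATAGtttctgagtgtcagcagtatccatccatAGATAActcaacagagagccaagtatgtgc
Ms4a2: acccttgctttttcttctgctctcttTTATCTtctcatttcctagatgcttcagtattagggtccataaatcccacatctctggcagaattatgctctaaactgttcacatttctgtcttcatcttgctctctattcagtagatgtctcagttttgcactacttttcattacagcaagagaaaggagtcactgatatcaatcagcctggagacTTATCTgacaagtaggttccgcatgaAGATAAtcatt
The motifs began -64 and -30 from the start of Ccr3 and -224, -37 and -11 from that of Ms4a2.

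For the protease genes Cpa3 and Mcpt8 the groups overlapped. Cpa3 encodes carboxypeptidase A3, a mast cell granule protease also present in basophil progenitors. It measured 6.78, 6.90 and 7.29 on the KO-labelled arrays, against 7.28, 6.49 and 7.27 on the WT-labelled arrays. The highest value was on a KO-labelled array and the lowest on a WT-labelled one. The difference was -0.02 ± 0.24 (SE, 95% interval -0.55 to 0.51; limma adjusted p = 0.986). Mcpt8 encodes a granule protease that marks mouse basophils. It measured 7.50, 7.07 and 6.46 on the KO-labelled arrays, against 6.82, 6.72 and 6.73 on the WT-labelled arrays. KO-labelled array 1 was the highest and KO-labelled array 3 the lowest. The difference was 0.26 ± 0.24 (SE, 95% interval -0.28 to 0.79; limma adjusted p = 0.742), and 0.53 without KO-labelled array 3. Without KO-labelled array 1 it was 0.01.

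Hdc encodes histidine decarboxylase, the enzyme that makes histamine, and is used in the mouse as a marker of myeloid-biased stem cells. It measured 5.44, 5.78 and 5.01 on the KO-labelled arrays, against 5.51, 5.57 and 5.77 on the WT-labelled arrays. KO-labelled array 3 was the lowest, and KO-labelled array 2 and WT-labelled array 3 the highest. The difference was -0.21 ± 0.21 (SE, limma adjusted p = 0.758), and it was -0.39 without KO-labelled array 2 and -0.01 without KO-labelled array 3.

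Over the 10 genes, 8 were lower and 2 higher in the KO-labelled arrays, and their median difference was -0.33, where 11088 of all 22180 genes were lower and the median was 0.00. Ccr3, Il5ra, Ms4a2 and Fcer1a lay in the dimmest 40% of genes by mean signal, 8872 in all, of which 5290 were lower, with a median of -0.05. None of the 10 passed an adjusted p of 0.05 in limma, beside 0% of all genes that did. At an unadjusted p under 0.05, 4 were lower (Prg2, Epx, Ccr3 and Ms4a2), beside 5.51% of all genes and 8.59% of the dimmest 40%, and 0 were higher, beside 4.74%. The groups did not overlap for 2 genes with the KO-labelled arrays lower, beside 8.37% of all genes, and for 0 with them higher, beside 7.75%. These were Ccr3 and Ms4a2, and among the dimmest 40% of genes 12.4% did not overlap and were lower. After cyclic loess, which removes a drift of differences with signal level, Ccr3 had -0.88 and Ms4a2 -0.61. Leaving out KO-labelled array 2 took Prg2 past the threshold at -2.83 (limma adjusted p = 0.0177), and Prg3 and Epx then had -1.13 and -1.35. Leaving out KO-labelled array 1 or 3 gave -1.23 and -1.20 for Prg2. Prg2 and Epx kept an unadjusted p under 0.05 without KO-labelled array 2 or WT-labelled array 2 and lost it without any other array. Ms4a2 lost it without KO-labelled array 2, KO-labelled array 3 or WT-labelled array 3. Ccr3 kept it in every case, at -1.13 to -0.70.

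**Figure D2:**
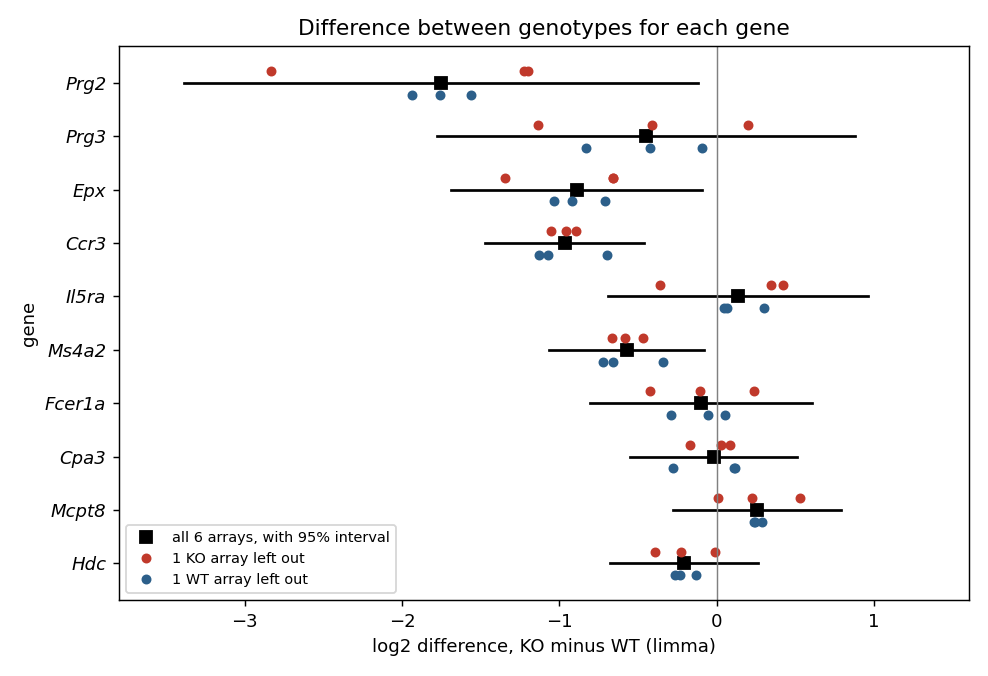
Log2 difference, KO-labelled minus WT-labelled, for each of the 10 genes (vertical axis) on the horizontal axis: the black square and line give the limma estimate and its 95% interval over all 6 arrays, and coloured points the estimate with 1 KO-labelled (red) or WT-labelled (blue) array left out. Prg2 moved to -2.83 without KO-labelled array 2, and Ccr3 kept its side of 0 in every case.

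Whether the genes vary together was tested over the 6 arrays for all 45 pairs. Exact permutation of the 720 arrangements of the arrays, two-sided, gave 3 pairs under 0.05 with Pearson's r and 4 with Spearman's rho, and 0 pairs after Benjamini-Hochberg adjustment by either measure (lowest adjusted p = 0.188 for Pearson and 0.375 for Spearman). The mean r over the 45 pairs was 0.25, with 32 pairs above 0. It was 0.11 without KO-labelled array 3 and 0.36 without KO-labelled array 1. Each pair was also read without the 2 arrays farthest from the median of its earlier-listed gene. The mean r was then 0.080, a value that depends on the order of the list. Once each group's mean had been removed it was 0.23 over all arrays, 0.12 without KO-labelled array 3, 0.13 without KO-labelled array 2, 0.15 without WT-labelled array 2 and 0.39 without KO-labelled array 1. With the 28 pairs that hold neither Prg2 nor Epx, the mean r was 0.15 and single pairs ran from -0.51 to 0.94.

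The highest of these 28 belonged to Ccr3 and Ms4a2, with r = 0.94 (exact permutation p = 0.0083, adjusted p = 0.188) and rho = 0.89 (exact permutation p = 0.033, adjusted p = 0.375) over 6 arrays. It was 0.85 without the 2 arrays farthest from the median of Ccr3, KO-labelled array 2 and WT-labelled array 3. That value still carries the difference between the labels. With group means removed r was 0.89, a value that still includes WT-labelled array 3, where both genes were highest (3.64 and 4.39). A correlation without both the label difference and that array was not tested. Both genes were dim, with mean signals above 13.2% and 35.0% of genes. The dim genes Mcpt1 and Mrgprb1, described below, were also highest on that array. Fcer1a and Mcpt8 had r = 0.77 (exact permutation p = 0.074, adjusted p = 0.625) and rho = 0.77 (exact permutation p = 0.10, adjusted p = 0.661). Without the 2 arrays farthest from the median of Fcer1a, r was -0.05, so this relation rests on KO-labelled arrays 1 and 3. Fcer1a and Ms4a2, whose products join in one receptor, had r = 0.58 (exact permutation p = 0.217, adjusted p = 0.812) and rho = 0.54, and -0.03 without the 2 arrays farthest from the median of Ms4a2. Cpa3 and Mcpt8 had r = -0.42 (exact permutation p = 0.442, adjusted p = 0.915) and rho = -0.37.

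**Figure D3:**
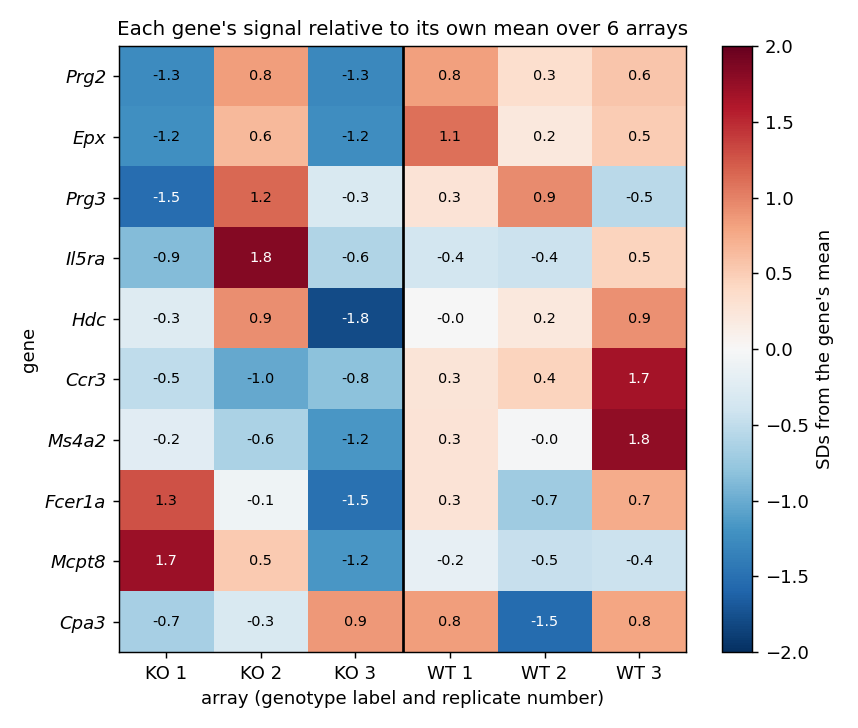
Signal of each gene (rows) on each array (columns, KO-labelled left of WT-labelled) in SDs from that gene's mean over 6 arrays, red above and blue below. Prg2 and Epx share low values on KO-labelled arrays 1 and 3, Ccr3 and Ms4a2 are highest on WT-labelled array 3, and Fcer1a and Mcpt8 are highest on KO-labelled array 1.

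Likeness to Prg2 was also measured over all genes as a distance, after the values were seen. The distance is the root of the summed squared differences between standardized values, in which 0 means the same pattern. It falls as Pearson's r over the same 6 arrays rises, so it is not a separate measure. For Prg2 and Epx it rests on the same 2 separate sets of arrays. Epx ranked 3 of 22179 genes at 0.368, and Hdc ranked 568 at 1.43, Prg3 1299 at 1.74 and Il5ra 1816 at 1.90. Fcer1a, Cpa3 and Mcpt8 had 40.8%, 49.5% and 61.1% of genes closer to Prg2 than they were. Ranks 1 and 2 for Prg2 were held by the predicted gene Gm17359 and the taste receptor gene Tas2r143. The genes closest to Epx, in order, were the olfactory receptor gene Olfr305, Prg2, Hgf, Gm17359, the mucin gene Muc6 and Mitf. Hgf and Mitf are described after their values were seen. Hgf encodes hepatocyte growth factor and measured 5.64, 6.35 and 5.58 on the KO-labelled arrays, against 6.34, 6.03 and 6.15 on the WT-labelled arrays. Mitf, a factor of mast cells and basophils, measured 4.51, 4.96 and 4.40 on the KO-labelled arrays, against 5.29, 4.81 and 5.01 on the WT-labelled arrays. Both had their 2 lowest values on KO-labelled arrays 1 and 3, which follows from their choice by likeness to Epx and is no separate observation.

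The mean standardized pattern of the 10 genes was closest to 8 genes with other roles, among 10229 others with a gene name and a mean above the median signal. Espl1, which encodes the protease separase, had r = 0.99 with it, and Ddhd1, Elmod3, Pcnx, Zc3h3, Smcr8, Ppp6r3 and Hmga2-ps1 had 0.97 to 0.98. These values describe 6 arrays, share depth and normalization, and carry no p.

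Genes that work with the 10 or mark the same cells were set out in 5 lists, chosen with earlier results of these data known. At an unadjusted p under 0.05 in limma, 5.51% of all genes were lower and 4.74% higher. Of 11 measured further eosinophil genes, 6 were lower and 5 higher, with 1 lower and 0 higher at an unadjusted p under 0.05 and a median of -0.12. That gene was Ltc4s, which makes leukotriene C4 and also stands in the mast cell list, at 5.48, 5.81 and 5.88 on the KO-labelled arrays, against 6.27, 6.33 and 6.11 on the WT-labelled arrays, without overlap (difference -0.51 ± 0.17, SE, limma adjusted p = 0.383). The eosinophil ribonuclease gene Ear6 had -0.46, and Adgre1 and Ptger3 had 0.35 and 0.26. Ear6 and Adgre1 were dim, with mean signals above 31.0% and 29.7% of genes, and for both the groups overlapped. Ear6 was at 2.83, 3.95 and 2.90 on the KO-labelled arrays, against 4.05, 3.16 and 3.85 on the WT-labelled arrays. WT-labelled array 2 was low along with KO-labelled arrays 1 and 3, so its low values were not limited to KO-labelled arrays.

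Of 17 further basophil genes, 9 were lower and 8 higher, with 0 under an unadjusted p of 0.05 in limma and a median of -0.01. The cytokine genes Osm, Il6 and Il4 had -0.33, -0.28 and -0.35, with Il6 dim (above 6.77% of genes), while Il13, named after its value was seen, had 0.15. Slc18a2, the vesicle transporter that loads histamine, had 0.21. Of 23 further mast cell genes, 15 were lower and 8 higher, with 3 lower and 2 higher at an unadjusted p under 0.05 and a median of -0.07. In this list 15 genes had a mean below the median signal of all genes. Among the dimmest 40% of genes, 5290 of 8872 were lower. Of the 8872, 8.59% were lower at an unadjusted p under 0.05 in limma. The lower 3 were Ltc4s, the protease gene Mcpt1 at -0.63 and the receptor gene Mrgprb1 at -0.55. Mcpt1 and Mrgprb1 were dim, above 5.47% and 10.2% of genes, and were highest on WT-labelled array 3, at 2.94 and 3.15. Ctsg, the cathepsin G gene that granulocyte and monocyte progenitors also express, was at 0.41 ± 0.10 (SE, limma adjusted p = 0.334), and with Rab27b, a GTPase of granule release, at 0.45, named after its value was seen, made up the higher 2.

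**Figure D4:**
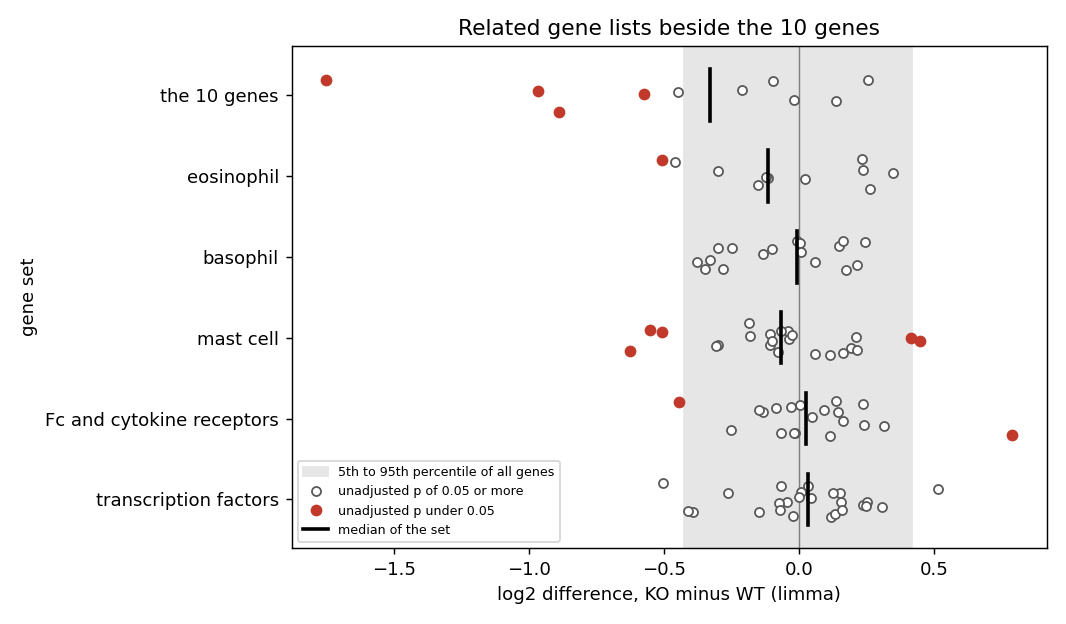
Log2 difference, KO-labelled minus WT-labelled (horizontal axis), of the 10 genes and of 5 lists of related genes (rows), with red points at an unadjusted limma p under 0.05, open points for the rest and a black bar at each set's median. The grey band holds the 5th to 95th percentile of all genes; Prg2, Ccr3, Epx, Ms4a2 and Prg3 lie to its left, and the list medians run from -0.12 to 0.03.

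Of 20 Fc and cytokine receptor and signalling genes, 9 were lower and 11 higher, with 1 in each direction at an unadjusted p under 0.05 and a median of 0.02. Csf2rb2, a beta chain that mouse interleukin-3 uses, measured 5.43, 5.66 and 4.59 on the KO-labelled arrays, against 3.89, 4.61 and 4.82 on the WT-labelled arrays (difference 0.79 ± 0.32, SE, limma adjusted p = 0.456). Csf2rb, the common beta chain that pairs with the interleukin-5 receptor, had -0.01, and Fcer1g, the signalling chain of the IgE receptor, 0.24. Il18r1, the interleukin-18 receptor gene, had -0.45 without overlap, and Lat and Csf2ra had 0.31 and -0.25. Of 25 transcription factors, 10 were lower and 15 higher, with 0 under an unadjusted p of 0.05 in limma and a median of 0.03. Gata1 and Gata2, the GATA factors of these lineages, had -0.05 ± 0.18 and 0.01 ± 0.13 (SE). Mitf had -0.41, Cebpb -0.39, Ikzf2 -0.26 and Trib1 -0.51. Of those higher, named after their values were seen, Xbp1 had 0.52 and Cebpa 0.30. The 5 lists held 0 genes with an adjusted p under 0.05 in limma. Groups without overlap and with KO-labelled arrays lower, as for Ltc4s, Il18r1, Mcpt1 and Mrgprb1, were seen for 8.37% of all genes. Groups without overlap and with KO-labelled arrays higher, as for Ctsg and Slc18a2, were seen for 7.75%.

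Markers of other granulocytic cells were read on the same arrays, and their part in the differences above was not tested. Of 20 mature neutrophil genes, 16 were lower and 4 were higher in the KO-labelled arrays, and the mean of the list was 6.71 to 7.02 there and 6.97 to 7.21 in the WT-labelled arrays. It was lowest on KO-labelled array 2, the array on which Prg2 was highest. All 13 granulocyte and monocyte progenitor genes were higher in the KO-labelled arrays, at a list mean of 8.10 to 8.26, against 7.74 to 8.0 in the WT-labelled arrays. The list means of macrophage genes were 4.36 to 4.63 and 4.51 to 4.84 in the same order, those of B and plasma cell genes 5.98 to 6.47 and 5.77 to 6.69, and those of megakaryocyte genes 5.45 to 5.52 and 5.53 to 5.55. Erythroid genes were at 5.95 to 6.04 and 5.88 to 6.19, and T and NK genes at 4.45 to 4.49 and 4.39 to 4.46.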

How the data were processed

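The 6 arrays (Affymetrix MoGene 2.0 ST, total RNA of sorted LSK cells, amplified with a NuGEN kit) gave 1 deposited table of log2 values for 41345 probe sets, which the authors made with Affymetrix Expression Console per the submitters' processing notes. The log base was taken as 2 from the range of the values (0.83 to 13.5). The sources used here name no background correction, normalization or filter. Array medians lay between 4.05 and 4.10, and no further normalization was applied.

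GEO's platform annotation gave 23521 probe sets 1 symbol; 1814 with several symbols and 16010 that it does not list were left out. The probe set with the highest mean stood for each of 22180 genes. KO-labelled and WT-labelled arrays were compared with limma 3.58.1 in R 4.3.3 (lmFit and eBayes with an intensity trend, genotype only, two-sided, Benjamini-Hochberg over all genes, threshold 0.05), after the code was tested on simulated data. Pairs used exact permutation over 6 arrays.

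The genes, lists and tests were chosen with earlier results of these data known. The rule named all 10 genes, up to 4 genes per list by smallest p, 5 partner genes and the 8 genes closest to the mean pattern. Promoters were those of RefSeq (GRCm38.p6). Alternatives covered moderation, array weights, normalization, dim genes, probe set means, a replicate block and each array left out.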

Additional observations from a re-analysis of the deposited data

How the results depend on the processing

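With 3 arrays per group and deposited values whose normalization is unknown, a difference is not resolved where its 95% interval holds both signs. This includes differences above their SE, as for Mcpt8 at 0.26 ± 0.24 (SE, interval -0.28 to 0.79). The dim genes Ccr3, Ms4a2, Fcer1a and Il5ra lie near the lower end of the signal range. With 1 array left out, the median difference over the 10 genes ran from -0.49 to -0.24 and the mean pairwise r from 0.11 to 0.36. All 10 genes kept their direction under array weights and the alternatives of normalization. The alternatives of moderation, probe set means and the replicate block cannot move these differences, so they say nothing about direction. Moderation and the block alter only the SE and p, and each of the 10 had 1 probe set.

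Leaving out genes under the 40th percentile gave 2 of the 10 genes lower at an unadjusted p under 0.05 (Prg2 and Epx, since the 4 dimmest were not tested), 456 of all genes lower in place of 1222, and 1981 genes without overlap in place of 3577. Median centring gave 1843 lower genes. Robust eBayes left 3 of the 10, without Prg2 (unadjusted p = 0.148). With 1 array left out, 1 to 4 of the 10 genes were lower at an unadjusted p under 0.05, 0 to 1 of the 10 and 0 to 1 of all genes passed the adjusted threshold, and 5474 to 6673 genes did not overlap, where smaller groups overlap less easily. The differences that changed sign with 1 array left out ran from -1.13 to 0.20 for Prg3, -0.28 to 0.11 for Cpa3, -0.36 to 0.42 for Il5ra and -0.43 to 0.23 for Fcer1a. The cause was not tested. With the replicate number as a replicate block, 1181 genes were lower at an unadjusted p under 0.05, with the same 4 of the 10 among them and 0 past the adjusted threshold. Same-numbered arrays had correlations of deviations of 0.02, -0.03 and -0.09, and arrays of unlike number -0.07 to 0.11, so no pairing by number was seen. Whether same-numbered arrays were handled together was not tested.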

Other observations

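Markers of the lists above that the naming rule left out, picked for their cell type, were read as single values. All were already counted in those lists. Of these, the eosinophil gene Ear10 was dim, above 1.21% of genes, and had a difference of -0.12. Siglecf, a surface lectin of eosinophils, measured 4.86, 4.77 and 4.72 on the KO-labelled arrays, against 4.74, 4.25 and 4.67 on the WT-labelled arrays, and did not share the low values of Prg2 on KO-labelled arrays 1 and 3. Prss34, a protease of mouse basophils, measured 6.75, 7.07 and 6.23 on the KO-labelled arrays, against 6.93, 6.79 and 6.36 on the WT-labelled arrays, and was lowest on array 3 of either label. The basophil receptor gene Cd200r3 and the mast cell protease genes Tpsb2, Tpsab1, Cma1 and Mcpt4 were dim, each with a mean signal above at most 34.5% of genes. Among these 5, Cma1 alone had groups that did not overlap, at 2.26, 2.39 and 2.54 on the KO-labelled arrays, against 2.61, 2.92 and 2.57 on the WT-labelled arrays (limma adjusted p = 0.524). KO-labelled array 3 and WT-labelled array 3 lay close to each other. Among the dimmest 40% of genes, 12.4% did not overlap and were lower.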
